A study of Mus musculus with 41 samples.

Results

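Which genes outside the sex chromosomes differed between male and female livers after FGF21 treatment was examined in 20 of the 41 livers of the series: 11 from FGF21-treated males and 9 from FGF21-treated females. Genes were taken by their position on an autosome and by a mean of at least 0.5 CPM over all 41 livers. CPM is the count scaled to the size of the library. Sex was taken from the sample labels, so no sex difference was asked of a gene. A gene low in 1 sex could still pass through the other. Of 52636 genes in the table, 48182 were autosomal, and 12760 of these passed the filter and were tested. All mice were C57B/6J and ate a 60% high-fat diet for about 10 weeks from 10 weeks of age. The FGF21 groups were injected i.p. with the recombinant human protein, a hormone made mainly by the liver, at 0.1 mg/kg, 1 time shortly before the dark phase and 1 time after lights came on the next day. The vehicle groups, 11 males and 10 females, received saline on the same schedule, and mice were killed 2 hours later. Each library was made from whole liver RNA with a 3′-end kit and yielded the number of reads per gene. In whole tissue, fewer cells of a type and less RNA per cell cannot be told apart.

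The liver is one of the most sexually dimorphic organs of the mouse outside the gonads. Males release growth hormone (GH) in pulses and females more continuously, and hepatocytes read the pattern through the GH receptor and the transcription factor STAT5, with BCL6 acting mostly in males and CUX2 in females. The genes under this control encode enzymes that oxidize or conjugate steroids, bile acids, and drugs, membrane transporters, and secreted proteins such as the major urinary proteins, which carry pheromones.

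Total counts ran from 1902687 to 3871421 in FGF21-treated males (median 2951947) and from 2130492 to 4007239 in FGF21-treated females (median 2947190), with an exact permutation P of 0.652 (two-sided). The share of mitochondrial counts was 21.6% to 26.2% against 20.3% to 24.3% (exact permutation P = 0.254). Xist, the RNA that silences an X chromosome, was at 509.9 to 915.6 CPM in the females and at 0.643 CPM or less in the males, and Ddx3y of the Y chromosome was at 107.1 to 164.4 CPM in the males and at 0.892 CPM or less in the females. No library stood apart. The library codes list the males first and the females after them, so that order of handling and sex cannot be told apart.

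With FGF21, 1301 of 12760 autosomal genes differed between the sexes (10.2% of genes tested, adjusted P under 0.05 in edgeR's quasi-likelihood test). Of these, 622 were higher in males (4.87%) and 679 were higher in females (5.32%). Differences of at least 2-fold were found for 351 genes (2.75%), 162 higher in males (1.27%) and 189 higher in females (1.48%). The other 950 called genes differed by less than 2-fold, and the median size of a called difference was 0.63 on the log2 scale, against 0.19 for all autosomal genes. By fitted values, 18 male-higher and 20 female-higher genes had a log2 difference of at least 5. Some of these were nearly silent in the other sex, where counts show only a smaller lower bound, such as 4.26-fold for Nat8f5. In 182 genes (1.43%) the livers of the sexes did not overlap at all, with every male above every female in 96 (0.752%) and every female above every male in 86 (0.674%). All 182 were among the called genes, and 119 of them reached 2-fold.

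How libraries were scaled affected the balance of directions. With raw library totals in place of TMM, 395 genes were higher in males and 1138 in females, a male share of 25.8% against 47.8%, and the median log2 difference of all autosomal genes moved from -0.01 to -0.10. TMM factors were 0.886 to 1.04 in FGF21-treated males and 0.976 to 1.06 in FGF21-treated females. Many of the strongest genes were nearly silent in the other sex: 34 of the 2-fold female-higher genes had no FGF21-treated male above 3 counts, and 22 of the 2-fold male-higher genes had no FGF21-treated female above 3 counts. For these genes the fold is given as a lower bound, against 3 counts per library. The bound itself was under 2-fold for 18 and 13 of them, and 149 male-higher and 171 female-higher genes were at 2-fold by the fitted value or by the bound.

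**Figure D1:**
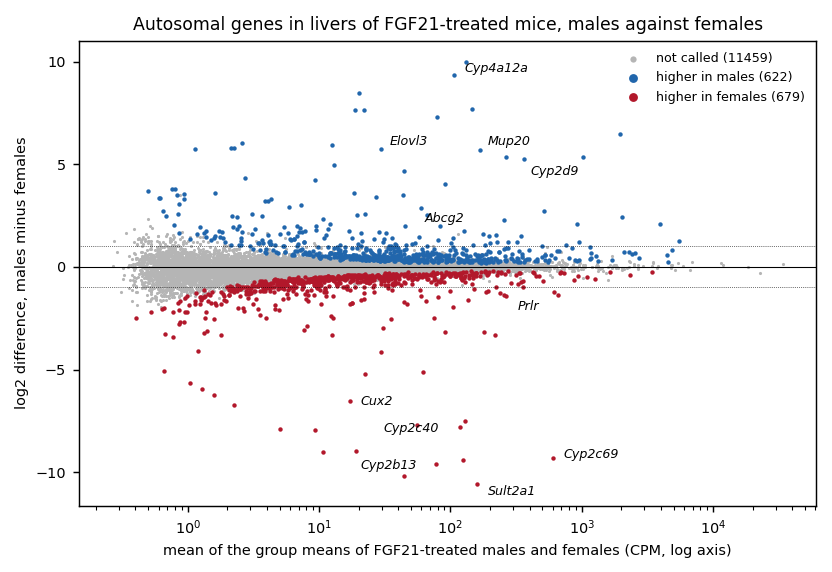
Log2 difference between FGF21-treated males and FGF21-treated females (vertical axis) against the mean of the 2 group means in CPM (horizontal log axis) for each of the 12760 autosomal genes. Blue points are the 622 genes higher in males, red points the 679 genes higher in females, grey points the genes not called, and dotted lines mark 2-fold; the largest differences lie at low and at moderate levels in both directions.

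The male-higher gene with the smallest P was Cyp2d9, a cytochrome P450 that hydroxylates testosterone (chr15:82433437-82456845, plus strand). It ran from 469.9 to 985 CPM in FGF21-treated males (median 707.6) and between 11.1 and 25.3 CPM in the FGF21-treated females (median 17.7). Every male lay above every female, a 38.8-fold difference (log2 difference 5.28 ± 0.20 SE, adjusted P = 4.14e-23). Mup20, the pheromone darcin, was at 167.6 to 489.5 CPM in the males (median 333.3) and 2.38 to 13.9 CPM in the females (median 5.78), 51.5-fold higher in males (adjusted P = 4.64e-20). Mup21, of the same cluster, was 25.4-fold higher in males, at 36.3 to 133.1 CPM (median 85.9) against 0.886 to 5.65 CPM (median 3.13). Cyp4a12a, an arachidonic acid hydroxylase, was at 110.6 to 348.6 CPM in the males (median 203.9), while no female exceeded 0.696 CPM, so that it was at least 212.6-fold higher in males. The groups of all 4 genes were fully apart. Overlapping genes were annotated at Cyp2d9 (Gm49419 on the opposite strand and Gm46501, among others, on the same strand), and Mup and Cyp4a12 copies are near-identical, so that the share of reads given to each copy is uncertain.

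Smaller but equally clean differences were seen in abundant genes of transport and metabolism. Abcg2, a pump that exports conjugates and urate, was at 64.6 to 99.6 CPM in FGF21-treated males (median 87.8) and at 26.1 to 35.4 CPM in FGF21-treated females (median 31.0), 2.79-fold higher in males with an adjusted P of 2.4e-20. Aox3, a hepatic aldehyde oxidase, was 2.31-fold higher in males, with 258.0 to 361.9 CPM (median 328.6) against 121.8 to 155.0 CPM (median 136.3). Chpt1, which makes phosphatidylcholine, ran from 305.1 to 465.6 CPM in the males (median 398.2) and from 122.6 to 217.6 CPM in the females (median 152.9), a 2.35-fold difference. None of these 3 overlapped between the sexes. Among less abundant genes, Nat8, an N-acetyltransferase, was 31.6-fold higher in males (17.1 to 43.2 CPM, median 22.2, against 0 to 2.08 CPM, median 0.402). Nat8f5 of the same cluster was at 2.41 to 8.04 CPM in males (median 3.82) and at 0 in 8 of 9 females, at least 4.26-fold higher. Elovl3, which elongates saturated fatty acids, was at 33.0 to 95.4 CPM in males (median 46.4) and at 0 to 1.77 CPM in females (median 1.04), 53.5-fold higher in males with no overlap. Sycp3 lies on the opposite strand at Chpt1 and Pitx3 at Elovl3, and whether reads were counted by strand is not stated.

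On the female side, steroid and xenobiotic P450 genes and sulfotransferases led. Cyp2c40, a P450 that oxidizes fatty acids (chr19:39767071-39812814, minus strand), was at 202.5 to 299.5 CPM in FGF21-treated females (median 226.8) and at 0 to 4.27 CPM in FGF21-treated males (median 0.878), 221.9-fold higher in females (adjusted P = 2.24e-27). Its near copy Cyp2c69 was at 613.9 to 2655 CPM in females (median 1045) and at 0.585 to 6.65 CPM in males (median 1.38). Cyp2b13, a P450 of female liver, was at 118.9 to 202.5 CPM in females (median 155.6) and at 0.965 CPM or less in males, at least 138.3-fold higher. Sult2a1, which adds sulfate to bile acids and dehydroepiandrosterone, was at 213.7 to 498.8 CPM in females (median 314.9) and at 0.551 CPM or less in males, at least 282.5-fold higher. In all 4 genes, females and males were far apart with no overlap, and in all 4 the sequence is close to that of neighboring copies.

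Other leading female-higher genes had different functions. Slc22a26, an organic anion transporter, was 34.6-fold higher in females, at 94.3 to 155.6 CPM (median 118.4) against 0.394 to 9.02 CPM (median 3.22). Cux2, the transcription factor of female liver named above, was at 9.21 to 52.9 CPM in females (median 37.2) and at 1.42 CPM or less in males (median 0.293), at least 30.1-fold higher. In both genes the lowest female was above the highest male. Rdh16f2, a retinol dehydrogenase, was at 288.8 to 403.5 CPM in females (median 338.5) and at 105.1 to 169.0 CPM in males (median 134.9), a 2.44-fold difference. Cyp2c68 was 2.55-fold higher in females (288.0 to 447.4 CPM, median 371.0, against 101.3 to 187.0 CPM, median 131.6). St3gal6, a sialyltransferase, was 5.58-fold higher in females, with 16.2 to 28.6 CPM (median 20.6) against 1.61 to 5.83 CPM (median 3.66), and the gene Dcbld2 lies opposite to it. These 3 were also without overlap.

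**Figure D2:**
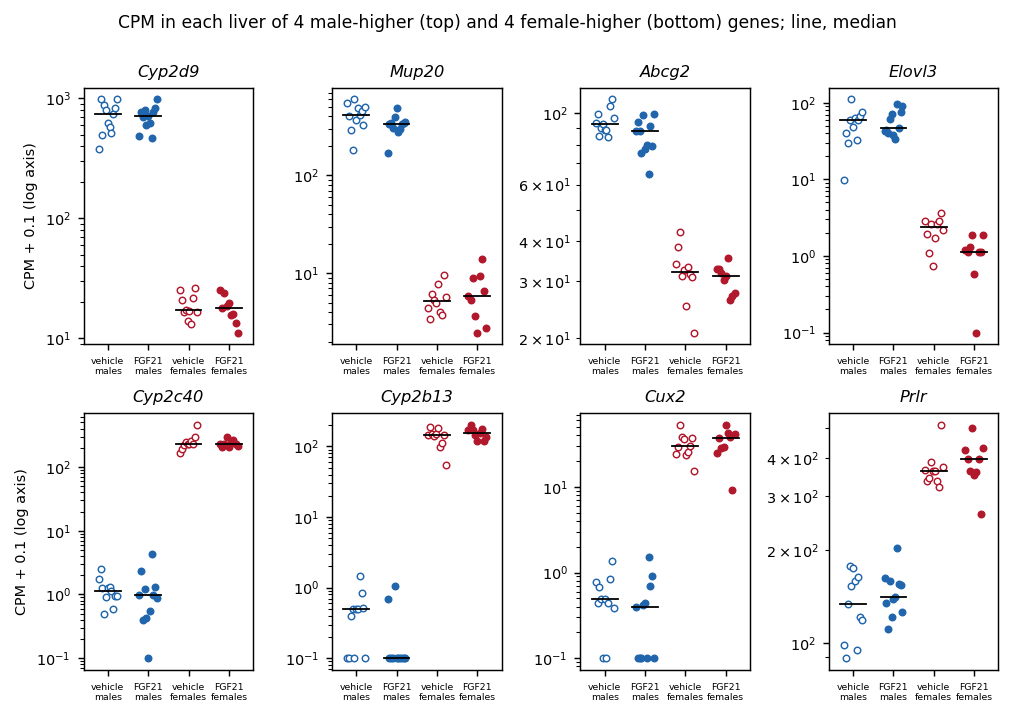
CPM plus 0.1 on a log axis in each liver (points) of 4 male-higher genes in the top row and 4 female-higher genes in the bottom row, with open points for vehicle, filled points for FGF21, blue for males, red for females, and a line at the group median. In each panel the FGF21-treated males and females are fully apart, as in Cyp2d9 with 469.9 to 985 CPM in the males and 11.1 to 25.3 CPM in the females.

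The 250 bases before the transcription start are shown for 3 genes of each direction, those of smallest P among the genes with a promoter in RefSeq (GRCm38.p6), because members of a family that moved together can be compared in them. Capitals mark ATCAAT or its reverse complement ATTGAT, the core bound by HNF6 and CUX2, and each sequence is written 5′ to 3′ on the strand of its gene. The male-higher genes are Cyp2d9 (chr15:82452127-82452376, plus strand, 18940 bases inside the start of the longer GENCODE gene), Abcg2 (chr6:58584283-58584532, plus strand), and Nat8 (chr6:85832280-85832529, minus strand):
Cyp2d9: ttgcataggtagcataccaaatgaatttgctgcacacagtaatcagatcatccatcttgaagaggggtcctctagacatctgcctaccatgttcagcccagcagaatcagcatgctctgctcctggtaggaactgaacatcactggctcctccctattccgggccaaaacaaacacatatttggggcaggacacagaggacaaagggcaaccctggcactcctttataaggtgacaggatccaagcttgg
Abcg2: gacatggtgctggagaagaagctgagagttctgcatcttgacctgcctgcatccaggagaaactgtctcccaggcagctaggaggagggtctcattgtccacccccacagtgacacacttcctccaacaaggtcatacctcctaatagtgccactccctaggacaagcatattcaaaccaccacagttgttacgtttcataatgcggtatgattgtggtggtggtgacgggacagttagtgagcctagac
Nat8: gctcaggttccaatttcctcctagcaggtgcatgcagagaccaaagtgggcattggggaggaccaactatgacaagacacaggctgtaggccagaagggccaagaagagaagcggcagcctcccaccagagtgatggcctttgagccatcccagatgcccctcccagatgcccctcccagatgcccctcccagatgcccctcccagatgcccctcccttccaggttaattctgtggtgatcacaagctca

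The female-higher genes are Cyp2c40 (chr19:39812815-39813064, minus strand), Cyp2b13 (chr7:26061245-26061494, plus strand), and Cyp2c69 (chr19:39886770-39887019, minus strand):
Cyp2c40: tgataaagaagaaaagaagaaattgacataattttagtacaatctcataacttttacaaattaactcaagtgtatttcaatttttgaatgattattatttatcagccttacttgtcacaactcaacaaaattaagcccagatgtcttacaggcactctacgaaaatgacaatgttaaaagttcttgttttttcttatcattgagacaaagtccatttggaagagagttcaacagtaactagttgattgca
Cyp2b13: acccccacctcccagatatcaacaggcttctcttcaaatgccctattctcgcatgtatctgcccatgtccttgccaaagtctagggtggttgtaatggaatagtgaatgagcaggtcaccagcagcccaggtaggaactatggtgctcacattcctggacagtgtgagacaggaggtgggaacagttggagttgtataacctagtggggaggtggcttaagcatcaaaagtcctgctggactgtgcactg
Cyp2c69: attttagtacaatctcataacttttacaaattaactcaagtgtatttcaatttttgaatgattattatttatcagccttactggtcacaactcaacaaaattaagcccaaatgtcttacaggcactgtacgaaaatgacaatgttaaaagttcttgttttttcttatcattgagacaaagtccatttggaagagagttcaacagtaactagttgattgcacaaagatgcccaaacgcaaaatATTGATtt

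Cyp2c40 and Cyp2c69 are copies of 1 sequence: with the second shifted by 30 bases, 217 of 220 compared bases were identical (98.6%). The annotated start of Cyp2c69 lies farther downstream, and its window therefore takes in an ATTGAT at bases -8 to -3 from the start. In the FGF21-treated males both genes stayed near 0. Promoters of a pair of major urinary protein genes were added after the motif counts were seen, Mup21 (chr4:62150842-62151091, minus strand) and Mup3 (chr4:62087318-62087567, minus strand):
Mup21: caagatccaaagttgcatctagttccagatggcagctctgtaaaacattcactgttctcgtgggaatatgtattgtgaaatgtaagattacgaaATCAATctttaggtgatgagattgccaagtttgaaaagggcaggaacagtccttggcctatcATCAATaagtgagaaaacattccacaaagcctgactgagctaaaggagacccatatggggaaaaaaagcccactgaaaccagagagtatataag
Mup3: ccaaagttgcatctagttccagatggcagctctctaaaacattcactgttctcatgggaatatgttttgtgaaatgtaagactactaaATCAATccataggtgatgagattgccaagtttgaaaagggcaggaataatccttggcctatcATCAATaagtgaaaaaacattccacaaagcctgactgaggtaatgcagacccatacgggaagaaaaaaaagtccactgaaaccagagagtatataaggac

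Each of these holds ATCAAT 2 times, and 205 of 244 compared bases were identical between them (84.0%). Promoters were matched for 9425 of 12760 tested genes, and ATCAAT was found on either strand in 382 of them (4.05%). It was found in 18 of 114 promoters of 2-fold male-higher genes (15.8%) and in 10 of 132 promoters of 2-fold female-higher genes (7.58%). All 11 Mup promoters among the former held it, which left 7 of 103 (6.80%) outside that family. The STAT5 letters TTCNNNGAA were in 566 of 9425 promoters (6.01%), in 9 male-higher promoters (7.89%), and in 6 female-higher promoters (4.55%). The longer HNF1 motif was in 6 of 9425 (0.0637%) and in 1 promoter of each direction. All motifs were searched on both strands of these 250 bases only, and a match is a description of the sequence.

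Many dimorphic genes were neighbors on the chromosome. Of the 162 male-higher 2-fold genes, 41 (25.3%) had a neighbor among tested genes that was also 2-fold male-higher, whereas 2.44% of all autosomal genes had such a neighbor. Of the 189 female-higher genes, 36 (19.0%) had a female-higher neighbor, against 2.77% of all. The longest runs were families of near copies. On chromosome 4, Mup9, Mup1, Mup10, Mup11, Mup-ps7, and Mup12 (chr4:60418046-60741326) were all male-higher. On chromosome 7, a run of 6 from Cyp2b10 to Cyp2g1 (chr7:25897620-26821205) and 4 sulfotransferase genes, Sult2a5, Sult2a2, Sult2a1, and Sult2a3 (chr7:13623967-14123044), were female-higher. On chromosome 5, Cyp3a16, Cyp3a63-ps, Cyp3a41a, Cyp3a44, and Cyp3a11 were female-higher, and on chromosome 19 so were Cyp2c68, Cyp2c40, Cyp2c69, and Cyp2c37. Chromosome 4 held 29 of the 2-fold male-higher genes among 798 tested, with 12.7% of its genes called, against 10.2% of all autosomal genes. Chromosome 7 held 22 of the female-higher ones among 987 tested, with 8.31% called, and chromosome 19 held 16 among 457, with 13.8% called. Over all autosomal genes, 1.27% were male-higher and 1.48% female-higher at 2-fold. Neighbors in such families share sequence and so are not independent observations.

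The same comparison was then made in the 21 vehicle livers, from saline-injected mice, which share no mouse with the FGF21 livers. Genes called with both treatments in the same direction are here termed kept, though no mouse was followed over time. With vehicle, 1814 autosomal genes differed between the sexes (14.2%), 921 higher in males (7.22%) and 893 in females (7%). Called with both treatments and in the same direction were 845 genes (6.62% of genes tested), 434 higher in males and 411 higher in females. These were 65.0% of the genes called with FGF21 and 46.6% of those called with vehicle. No gene was called in opposite directions. Of the 351 genes at 2-fold with FGF21, 258 (73.5%) were called with vehicle, and of the 406 genes at 2-fold with vehicle (3.18%), 262 (64.5%) were called with FGF21. The leading genes described above were all among the kept genes. The median size of the difference in the kept genes was 0.65 with FGF21 and 0.68 with vehicle on the log2 scale, and it was larger with FGF21 in 422 and smaller in 423. Being called with both treatments selects genes of similar difference, so this balance is no test of change.

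In separate fits that shared no liver, 1591 genes were called on vehicle livers alone. Of these, 1546 (97.2%) had the same direction in FGF21 livers and 834 (52.4%) were called there, with a median difference of 0.60 where they were chosen and 0.43 in the other livers. Of 388 genes at 2-fold with vehicle, 384 (99.0%) had the same direction with FGF21 and 271 (69.8%) were called. In reverse, 1392 genes were called on FGF21 livers alone, 1359 (97.6%) had the same direction with vehicle, and the median went from 0.62 to 0.49. Across all 12760 genes, which are not independent replicates, the correlation of the log2 differences was r = 0.801 (Spearman coefficient 0.562). Over the 1301 genes called with FGF21 it was r = 0.966. These genes were chosen by a value that enters r and raises it, so 0.966 is no test of whether differences were kept.

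The genes at 2-fold in the fit of vehicle livers alone, 187 male-higher and 201 female-higher, were then followed in each FGF21 liver. The mean of the male-higher genes, each as log2(CPM + 1) centered on its mean over all 41 livers, was 0.41 to 0.94 in FGF21-treated males (median 0.67) and -0.96 to -0.72 in FGF21-treated females (median -0.81). The female-higher genes were at -0.87 to -0.40 in the males (median -0.63) and at 0.62 to 0.86 in the females (median 0.73). In vehicle livers, which chose the genes, the male-higher genes were at 0.44 to 1.02 in males and -0.94 to -0.77 in females. Neither set overlapped between the sexes in the FGF21 livers.

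**Figure D3:**
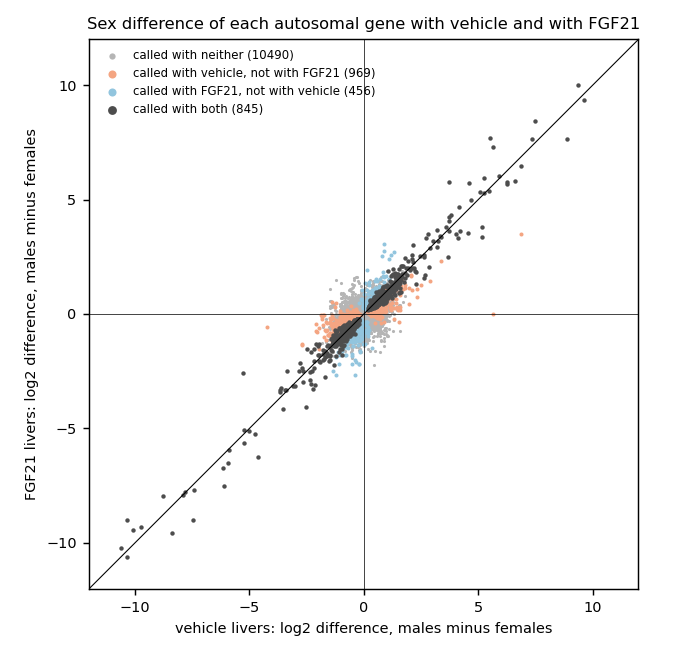
Log2 difference between males and females in FGF21 livers (vertical axis) against that in vehicle livers (horizontal axis) for each of the 12760 autosomal genes, with a line of equal difference. Dark points are the 845 genes called with both treatments, which lie along the line, light blue points the 456 called with FGF21 and not with vehicle, orange points the 969 called with vehicle and not with FGF21, and grey points the genes called with neither.

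An altered sex difference was tested by the treatment × sex interaction, the sex difference with FGF21 minus that with vehicle. No autosomal gene passed an adjusted P of 0.05 or 0.10 with edgeR (0% of genes tested, smallest adjusted P = 0.99), and none passed with limma-voom or DESeq2. At an unadjusted P under 0.05 there were 548 genes with edgeR (4.29%), 627 with limma-voom, and 584 with DESeq2. Among the 845 kept genes, 16 (1.89%) had an unadjusted interaction P under 0.05. The share was 19.1% among genes called with FGF21 only and 15.5% among those called with vehicle only. Calls use the same values as the interaction, so these shares, and the counts of intervals below, depend on how genes were chosen. The interval of the interaction bounds how far the kept differences could have moved. In 681 of the 845 kept genes (80.6%) the 95% interval lay within a log2 change of 1 in either direction, and the median half-width was 0.413. Of the 258 kept genes at 2-fold, 106 were bounded in this way. For Cyp2d9 the interaction was 0.05 (95% interval -0.43 to 0.54), for Abcg2 it was -0.07 (-0.32 to 0.18), for Aox3 -0.11 (-0.36 to 0.15), and for Cyp2c68 -0.05 (-0.32 to 0.21). For genes near 0 in a sex the interval was wide, as in Cyp4a12a (-4.39 to 3.83) and Cyp2c40 (-2.89 to 2.90), so that a change of several fold was not detectable at this depth. Elovl3 had an interaction of 1.14 (-0.22 to 2.50) and Mup20 one of -0.58 (-1.30 to 0.14).

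Genes called with FGF21 and not with vehicle numbered 456, and 427 of them (93.6%) had the same sign with vehicle. At 2-fold there were 93 such genes, 32 higher in males and 61 higher in females, of which 90 had the same sign with vehicle. Their median level over all livers was 2.19 CPM, against 9.17 CPM for the 2-fold genes that were kept. The interaction is the test of whether these genes changed, and none passed. Esrrg, an orphan nuclear receptor of energy metabolism, was at 0.949 to 7.72 CPM in FGF21-treated males (median 4.41) and at 4.87 to 14.3 CPM in FGF21-treated females (median 9.4), 2.26-fold higher in females (adjusted P = 0.00021). With vehicle, the medians of Esrrg were 5.16 CPM in males and 8.18 CPM in females (log2 difference -0.40, adjusted P = 0.241), and the interaction was -0.77 (unadjusted P = 0.0196, adjusted P = 0.99). The sexes overlapped with both treatments.

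Rnd1, a small GTPase of the cytoskeleton, was 2.25-fold higher in FGF21-treated females, at 7.64 to 20.8 CPM (median 14.3) against 3.54 to 10.9 CPM (median 7.31). Its medians with vehicle were 9.59 CPM in females and 6.78 CPM in males (adjusted P = 0.18), with an interaction of -0.68 (unadjusted P = 0.0453). Zfp750, a zinc finger factor, was 2.06-fold higher in FGF21-treated males (5.0 to 15.5 CPM, median 8.26) than in FGF21-treated females (2.66 to 7.65 CPM, median 4.18), and its medians with vehicle were 7.87 and 7.15 CPM (adjusted P = 0.226, unadjusted interaction P = 0.0244). The sexes of these 2 genes also overlapped with FGF21. The predicted gene Gm20337 was apart, at 3.34 to 6.48 CPM in FGF21-treated females and 0.585 to 1.93 CPM in FGF21-treated males, and the remaining gene of this kind was 2200002D01Rik. Zfp750 lies opposite to Tbcd, and long noncoding genes lie opposite to Esrrg.

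Genes called with vehicle and not with FGF21 numbered 969, of which 907 (93.6%) had the same sign with FGF21. Ifit3, an interferon-induced gene, was at 13 to 27.3 CPM in vehicle-treated females (median 18.5) and at 4.5 to 15.4 CPM in vehicle-treated males (median 9.11), 2.01-fold higher in females (adjusted P = 1.15e-05). With FGF21 the medians of Ifit3 were 16.2 CPM in females and 11.9 CPM in males (log2 difference -0.41, adjusted P = 0.13), and the sexes overlapped. Plk3, a stress-response kinase, was 2.95-fold higher in males with vehicle (median 44.7 against 13.2 CPM) and 1.75-fold higher in males with FGF21 (59.4 against 41.8 CPM, adjusted P = 0.0624). Fam174b, a membrane protein gene, was 3.04-fold higher in females with vehicle (adjusted P = 0.000136), while with FGF21 its medians were 2.44 CPM in females and 2.06 CPM in males (adjusted P = 0.467). Icos, a costimulatory receptor of T cells, was at a median of 3.09 CPM in vehicle-treated females and 0.838 CPM in vehicle-treated males, and at 2.38 and 1.84 CPM with FGF21 (adjusted P = 0.214). Chrm1, a muscarinic receptor, was at 0.251 to 2.57 CPM in vehicle-treated females and at 0 to 0.395 CPM in vehicle-treated males. Its highest count was 8 in those females and 1 in those males, so it was near the floor and at least 1.3-fold higher in females. With FGF21, Chrm1 was at 0 to 1.33 CPM in females and 0 to 1.1 CPM in males (adjusted P = 0.703). The interaction P of these 5 genes was between 0.00151 (Chrm1) and 0.0726 (Plk3) before adjustment and 0.99 after it.

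The 5 genes with the smallest interaction P among those called in either comparison included Spata2, an adaptor of death receptor signaling. Spata2 was at 11.8 to 23.9 CPM in FGF21-treated males (median 13.5) and at 7.44 to 11.6 CPM in FGF21-treated females (median 8.42), with every male above every female and a 1.58-fold difference (adjusted P = 0.00115). With vehicle its medians were 10.8 CPM in males and 12.1 CPM in females (adjusted P = 0.814), and the interaction was 0.73 (95% interval 0.32 to 1.14, unadjusted P = 0.000755, adjusted P = 0.99). Rnf114 lies on the opposite strand at Spata2. Pan2, a subunit of a poly(A) nuclease, was 1.64-fold higher in FGF21-treated females, at 7.07 to 13.3 CPM (median 10.9) against 3.85 to 8.68 CPM (median 6.06), with an adjusted P of 0.00215. With vehicle its medians were 9.11 CPM in females and 10.4 CPM in males (adjusted P = 0.526). Slc30a1, a zinc exporter, was at 82.2 to 139.1 CPM in FGF21-treated males and 77.9 to 124.8 CPM in FGF21-treated females, a 1.06-fold difference that did not pass (adjusted P = 0.645). With vehicle, Slc30a1 was at 65.4 to 87.6 CPM in males and 94.6 to 117.2 CPM in females, apart and 1.42-fold higher in females (adjusted P = 2.6e-06). The others were 2410131K14Rik and Hdhd2.

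**Figure D4:**
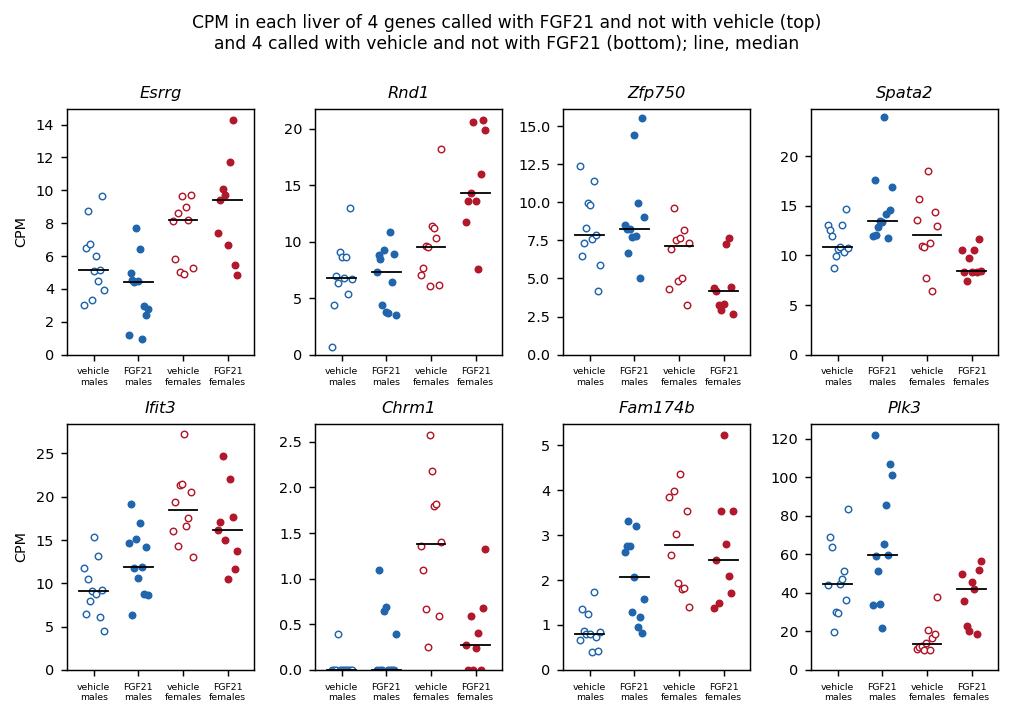
CPM in each liver (points) for 4 genes called with FGF21 and not with vehicle in the top row and 4 called with vehicle and not with FGF21 in the bottom row, with open points for vehicle, filled points for FGF21, blue for males, red for females, and a line at the group median. Spata2 is apart between FGF21-treated males (11.8 to 23.9 CPM) and females (7.44 to 11.6 CPM), and in the other panels the FGF21-treated sexes overlap.

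The genes were next described by function, in 16 lists matched to the table by symbol. Phase I enzymes were among the most dimorphic. Of 59 cytochrome P450 genes tested, 14 were higher in males and 21 in females (59.3% called, against 10.2% of all autosomal genes), and their median log2 difference was -0.12. The female-higher P450 genes lay mainly in the Cyp2a, Cyp2b, Cyp2c, and Cyp3a families. Cyp2a4, a steroid 15α-hydroxylase, was at 159.8 to 404.3 CPM in FGF21-treated females and at 0 to 6.44 CPM in FGF21-treated males. Cyp3a16 had no count in any FGF21-treated male and 3.13 to 23.5 CPM in the females, at least 8.92-fold higher. Cyp3a11, the main hepatic Cyp3a, was at 558.0 to 1246 CPM in females and 65 to 701.8 CPM in males (log2 difference -1.22, adjusted P = 0.00454), with overlap. The male-higher P450 genes included Cyp2u1 (32.1 to 68.1 CPM against 2.2 to 7.14 CPM), a fatty acid hydroxylase, and Cyp2f2, a naphthalene hydroxylase, which was 1.71-fold higher. Of the 5 flavin monooxygenase genes all were called, 4 higher in females. Fmo5, a Baeyer-Villiger oxidase, was higher in males at 312.8 to 627.2 CPM (median 542.6) against 235.8 to 328.8 CPM (median 294.0). All 5 were also called with vehicle.

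Conjugating enzymes split by family. Of 16 genes of sulfation, 9 were higher in females and 2 in males (68.8%), with a median log2 difference of -1.10, or -0.90 with silent genes at their bound. Several of the female-higher genes had almost no counts in males and entered the test through the females: 5 genes of the list were called where a mean of 0.5 CPM was asked of each sex, and 3 where 10 counts were asked of every liver. The latter filter also left 20 called P450 genes and 3 called flavin monooxygenase genes. The female-higher ones were Sult1c2, Papss2, and 7 members of the Sult2a and Sult3a families. Sult2a3 was at least 78.8-fold higher in females (26.5 to 164.3 CPM), and Sult3a1 at least 19-fold (4.87 to 35 CPM against 0 in every male). Papss2, which makes the sulfate donor, was at 294.2 to 438.8 CPM in females and at 176.1 to 265.0 CPM in males without overlap. Sult2a8, a bile acid sulfotransferase, went the other way, at 140.1 to 331.1 CPM in males (median 247.5) and 87.8 to 162.7 CPM in females (median 114.7), 2.12-fold higher in males. All 11 were called with vehicle as well. Of 12 glucuronosyltransferase genes, 2 were higher in males and 1 in females (25.0%), and 5 were called with only the FGF21 livers in the fit. Ugt2b1 was 1.67-fold higher in males (152.4 to 425.6 CPM, median 242.2, against 140.8 to 163.5 CPM, median 148.2), a call that was lost with 2 surrogate variables. Ugt1a1, which conjugates bilirubin, was 1.76-fold higher in FGF21-treated females (adjusted P = 0.000663), but its 3′ end is shared with the other Ugt1a genes and its count is uncertain. Of 20 glutathione transferase genes, 4 were higher in males and 2 in females (30.0%). Mgst1, the microsomal enzyme, was 1.48-fold higher in males with no overlap (4618 to 6256 CPM, median 5133, against 2995 to 4237 CPM, median 3623), and Gsto1 was 1.22-fold higher in females. Without TMM the split became 1 and 2 for the glucuronosyltransferases and 4 and 4 for the glutathione transferases.

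**Figure D5:**
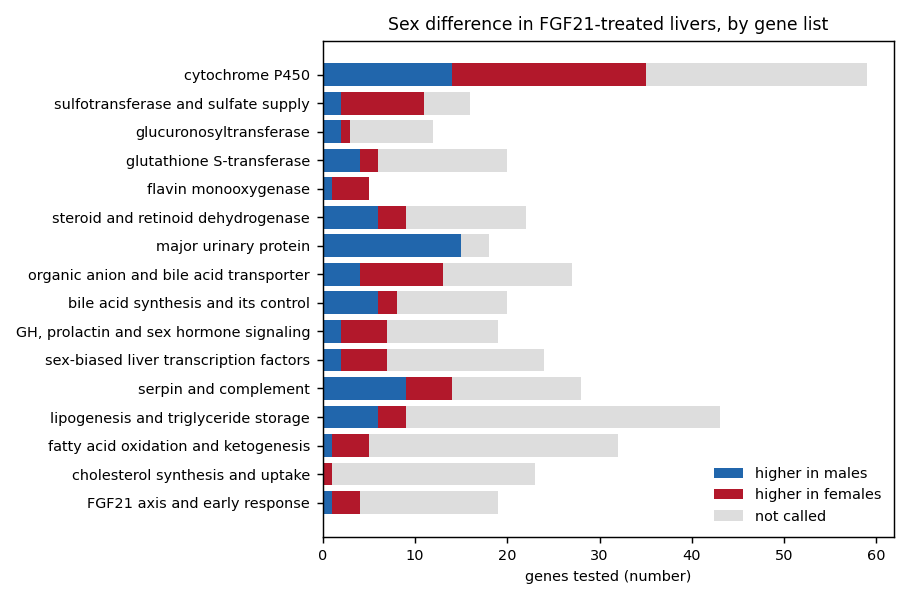
Number of genes tested in each of 16 lists (horizontal bars), split into those higher in FGF21-treated males (blue), higher in FGF21-treated females (red), and not called (grey). The P450 list has 14 male-higher and 21 female-higher of 59 genes, the sulfation list 2 and 9 of 16, and the major urinary protein list 15 and 0 of 18.

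Steroid and retinoid dehydrogenases had 6 male-higher and 3 female-higher of 22 genes (40.9%). Hsd17b12, which elongates fatty acids and reduces estrone, was 1.54-fold higher in males, at 155.0 to 282.6 CPM (median 224.1) against 118.4 to 171.3 CPM (median 144.3). Hsd3b5, a 3-ketosteroid reductase of male liver, was at 0.585 to 110.2 CPM in males and at 0.348 CPM or less in females, at least 40.1-fold higher. Srd5a1, the steroid 5α-reductase, was higher in males (27.9 to 61.8 CPM against 11.4 to 27.7 CPM) and Hsd17b6, a 3α-steroid oxidoreductase, was higher in females (log2 difference -0.97, adjusted P = 0.000134). Of 18 major urinary protein genes, 15 were higher in males and none in females (83.3%), with a median log2 difference of 2.10, and 7 were called with at least 10 counts in every liver. Their spread among males was wide: Mup11 ran from 509.0 to 12755 CPM in FGF21-treated males and was at 9.25 to 139.4 CPM in the females, and Mup7 from 32.1 to 717.7 CPM against 1.36 CPM or less. Mup3 was at 4322 to 9604 CPM in males and at 1056 to 1915 CPM in females. No female reached the lowest male in any of these 3 genes. Of the 15, 14 were called with vehicle, the exception being Mup16 (adjusted P = 0.0544 with vehicle).

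Transporters had 4 male-higher and 9 female-higher of 27 genes (48.1%), and 8 called genes with at least 10 counts in every liver. Slco1a1, an uptake transporter of organic anions, was at 85.7 to 488.6 CPM in FGF21-treated males (median 293.8) and at 0.238 to 4.13 CPM in FGF21-treated females (median 0.443). Its mean in vehicle-treated males was 294.4 CPM and in FGF21-treated males 293.0 CPM, and its mean in females went from 6.67 CPM (vehicle) to 1.3 CPM (FGF21) (interaction 2.22, unadjusted P = 0.0677). Slco1a4, of the same family, was higher in females without overlap, at 165.7 to 248.6 CPM against 39.4 to 116.1 CPM. Slc22a28 was at least 5.18-fold higher in males, and Slc22a27 was higher in females (log2 difference -2.99, adjusted P = 2.5e-09). The bile salt pumps and carriers Slc10a1 (adjusted P = 0.531) and Abcb11 (adjusted P = 0.331) did not pass with FGF21.

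Genes of bile acid synthesis and its control had 6 male-higher and 2 female-higher of 20 (40.0%). Scp2, the peroxisomal thiolase that shortens the bile acid side chain, was at 737.5 to 882.3 CPM in males (median 839.9) and at 419.0 to 539.7 CPM in females (median 470.4), 1.72-fold higher in males without overlap. Cyp8b1, which sets the share of cholic acid, was at 161.7 to 258.3 CPM in males and 77.7 to 108.8 CPM in females, and Cyp7b1, the oxysterol 7α-hydroxylase, at 54.2 to 203.5 CPM and 13.2 to 26.3 CPM, both without overlap. Cyp7a1, the rate-limiting enzyme of bile acid synthesis, was not called (log2 difference 0.02, adjusted P = 0.981), with 32.2 to 214.9 CPM in males and 58.4 to 129.9 CPM in females. Cyp39a1, a 24-hydroxycholesterol 7α-hydroxylase, was 1.56-fold higher in females (adjusted P = 0.00206). Of 13 members called with vehicle, 7 were kept, where 46.6% of all vehicle-called genes were. Nr0b2, which encodes the repressor SHP, was male-higher with vehicle (log2 difference 0.72, adjusted P = 0.00635) and had a log2 difference of -0.14 with FGF21 (adjusted P = 0.734, unadjusted interaction P = 0.0021). The interaction of Nr0b2 did not pass after adjustment.

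Of 19 genes of GH, prolactin, and sex hormone signaling, 2 were higher in males and 5 in females (36.8%). Among receptors, Prlr, the prolactin receptor, was at 262.6 to 499.9 CPM in FGF21-treated females (median 397.4) and 111.0 to 203.1 CPM in FGF21-treated males (median 140.9), 2.65-fold higher in females without overlap (adjusted P = 7.74e-14). Esr1, the estrogen receptor, was at 18.4 to 41.4 CPM in females and 5.23 to 15.5 CPM in males, and Lepr, the leptin receptor, was also higher in females (log2 difference -2.11, adjusted P = 9.11e-05). Ghr, the GH receptor, was higher in males by a log2 difference of 0.26 (adjusted P = 0.034), and Egfr, the epidermal growth factor receptor, was 2.91-fold higher in males (140.2 to 720.0 CPM, median 351.3, against 66.8 to 167.1 CPM, median 108.1) with overlap and no call with 2 surrogate variables. Of the secreted targets, Igf1 was higher in females by 1.24-fold (adjusted P = 0.00353) and Igfals likewise (adjusted P = 0.00186). The direct STAT5 targets Socs2 (17.8 to 156.7 CPM in males, 39.9 to 261.7 CPM in females, adjusted P = 0.102) and Cish (adjusted P = 0.864) and the kinase gene Jak2 (adjusted P = 0.898) did not pass. Of 24 liver transcription factors, listed with sex bias in mind, 2 were higher in males and 5 in females (29.2%). Beside Cux2, these were Trim24 (15.4 to 39.9 CPM in males, 33.8 to 59.2 CPM in females), Tox, Nr1i3, and Esrrg on the female side and Zbtb20 and Cebpb on the male side. Zbtb20 was 1.31-fold higher in males. Bcl6, the repressor of male liver, was at 8.23 to 89.7 CPM in males and 10.2 to 37.5 CPM in females (log2 difference 0.99, adjusted P = 0.192). Foxa1, a pioneer factor, was called with vehicle (log2 difference 0.59, adjusted P = 0.0162) and had a log2 difference of -0.17 with FGF21 (adjusted P = 0.66, unadjusted interaction P = 0.00432). Its interaction did not pass after adjustment.

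Secreted plasma proteins had 9 male-higher and 5 female-higher of 28 genes. Of the terminal complement genes, C6, C8a, C8b, and C9 were higher in males. C8g (161.1 to 252.4 CPM in males, 160.8 to 236.2 CPM in females, adjusted P = 0.394) and Hc, which encodes C5 (adjusted P = 0.114), were not called. C6 was at 53.7 to 180.3 CPM in males (median 110.5) and 7.62 to 23.7 CPM in females (median 13.6), 7.38-fold higher, C8a was at 288.8 to 540.8 CPM against 43 to 142.7 CPM, and C9 was at 319.0 to 607.5 CPM against 160.0 to 246.0 CPM. These 3 did not overlap between the sexes. On the other side, Mbl2, a lectin that starts complement activation, was 1.57-fold higher in females (984.3 to 1119 CPM, median 1078, against 604.7 to 839.2 CPM, median 644.6), and C3 and C1qa were also higher in females. Serpina1e, a proteinase inhibitor with near-identical copies, was at 222.1 to 5786 CPM in males and 14.3 to 214.3 CPM in females. Serpina6, which encodes the carrier of corticosterone, was higher in females (log2 difference -0.98, adjusted P = 1.5e-05). All 13 members called with vehicle were kept.

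Of 43 genes of lipogenesis and triglyceride storage, 6 were higher in males and 3 in females (20.9%), and 17 were called in all with 2 surrogate variables. Vldlr, a lipoprotein receptor, was 3.4-fold higher in females without overlap (22.9 to 32.8 CPM, median 28.6, against 2.44 to 12.5 CPM, median 8.25). The lipid droplet genes Plin4 (2.71 to 24.3 CPM in males, 0.443 to 2.86 CPM in females) and Cidec (0.394 to 18.4 CPM and 0 to 1.74 CPM) were higher in males, with overlap, as was Plin5 (log2 difference 0.69, adjusted P = 0.011). Lpin2, a phosphatidate phosphatase, was male-higher with both treatments, by 0.51 with FGF21 and 0.95 with vehicle (unadjusted interaction P = 0.00212, not passing after adjustment). Srebf1 and Acacb, of fatty acid synthesis, were female-higher at adjusted P of 0.0499 and 0.0497, next to the threshold, and with raw library totals the split of the list was 5 and 5. Pparg, a nuclear receptor of fat storage, was at 0.475 to 7.7 CPM in FGF21-treated males and 0.884 to 6.43 CPM in FGF21-treated females, with no call (adjusted P = 0.732). Of 32 genes of fatty acid oxidation and ketogenesis, 1 was higher in males and 4 in females (15.6%), and 9 were called with limma-voom. Acot3, a peroxisomal thioesterase, was 8.87-fold higher in females (52.2 to 215.8 CPM, median 176.5, against 1.57 to 56.5 CPM, median 14.7). Acot4 was higher in females as well (adjusted P = 6.45e-05), with Acadl and Bdh1. Of 23 genes of cholesterol synthesis and uptake, Lipc, hepatic lipase, was called (4.35%), 1.54-fold higher in females. With 2 surrogate variables 11 genes of this list were called, and 2 with raw library totals or with only the FGF21 livers in the fit.

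FGF21's own axis and the early genes of its signaling had 1 male-higher and 3 female-higher of 19 genes (21.1%). None of the 4 was called with vehicle, as was true of 456 of all 1301 genes called with FGF21. Another 3 members were called with vehicle only, but no interaction in this list passed after adjustment. Without FGF21-treated female replicate 8, 2 genes of the list were called with FGF21. The transcript of Fgf21 was at 0 to 5.49 CPM in FGF21-treated males (median 1.38) and at 0 to 2.01 CPM in FGF21-treated females (median 0.443), a difference that did not pass (adjusted P = 0.208). Its co-receptor Klb was at 3.22 to 13 CPM in males (median 9.18) and 6.2 to 13.2 CPM in females (median 10.9), with adjusted P = 0.497 with FGF21 and 0.00762 with vehicle, where it was female-higher. The interaction of Klb was 0.37 (95% interval -0.08 to 0.82, adjusted P = 0.99), so a changed sex difference was not shown. Fgfr1, the receptor paired with it in adipose tissue, was at 3.22 to 12.8 CPM and 2.44 to 8.84 CPM (adjusted P = 0.667). Fgfr2 was 1.54-fold higher in females (7.73 to 27.1 CPM in males, 21.3 to 36.5 CPM in females), though the annotated span of this gene covers many others. Of early response genes, Egr1 was at 38.3 to 227.1 CPM in males (median 82.2) and 37.5 to 173.9 CPM in females (median 90.1) and was not called (adjusted P = 0.976). Jun, a subunit of AP-1, was 2.36-fold higher in males (10.3 to 58.3 CPM, median 28.7, against 7.07 to 20.4 CPM, median 11.9) with overlap. Etv5 and Ppargc1a were higher in females, at adjusted P of 0.0494 and 0.0153, and with the size factors of DESeq2 the list had 2 female-higher genes.

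Markers of other liver cells moved with sex in part of the lists. Over all autosomal genes, 4.87% were male-higher, 5.32% were female-higher, and 1.43% did not overlap between the FGF21-treated sexes. In lists this short, a single call is not a result about the cell type. Of 8 markers of sinusoidal endothelium 4 were higher in females, and their summed level was 512.8 to 613.6 CPM in FGF21-treated females and 382.1 to 497.4 CPM in FGF21-treated males, without overlap. Of 7 Kupffer cell and macrophage markers 4 were higher in females, among them Clec4f (20 to 29.4 CPM against 7.34 to 22.2 CPM) and Csf1r (22.4 to 42.2 CPM against 9.36 to 25.4 CPM), and the sum was 164.4 to 296.4 CPM against 95.5 to 240.2 CPM. C1qa and Ptprc, expressed by macrophages, were also female-higher, and the part of these cells in the differences was not tested. Hepatocyte markers had 3 male-higher genes of 8 (sum 40192 to 60248 CPM in males, 40342 to 46750 CPM in females), Alb was not called (log2 difference -0.02, adjusted P = 0.925), and stellate cell, red blood cell, and mesothelial lists had no call. Of the 8 stellate cell and fibroblast markers, 3 were female-higher with vehicle, and 3 were female-higher with FGF21 under raw library totals. Of 3 adipocyte markers tested, Cfd (1.57 to 86.2 CPM in males and 0.696 CPM or less in females, at least 43.7-fold higher in males) and Cidec were male-higher, while Lep and Retn were at 0 in every FGF21 liver. The cholangiocyte list had 1 male-higher gene of 3, Sox9, but its median log2 difference was -0.53, toward females. Its other genes, Spp1 (medians 29.9 CPM in males and 37.2 CPM in females) and Epcam (0.949 and 1.1 CPM), were not called. The lymphocyte and neutrophil list had 1 female-higher gene of 4, with Cd79a and Ly6g at 0 in every FGF21 liver.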

How the data were processed

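RNA of 41 livers, 1 per mouse, was sequenced by the authors with a 3′-end kit (QuantSeq FWD). Per the labels and the paper's methods, reads were trimmed and aligned to GRCm38 with STAR 2.6.0c and GENCODE M15, and the deposited table holds raw counts of reads per gene, without normalization. Whether reads were counted by strand or collapsed by molecular identifier is not stated. Tables of normalized values were not used here. Because the kit reads the 3′ end, no correction for gene length was made, and copies of 1 molecule may be counted more than once. Symbols and positions were taken from GENCODE M21, which holds 52489 of the 52636 identifiers.

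The filter on the mean CPM (0.5 over the 41 livers) left 13185 genes for testing, of them 12760 autosomal. Library totals were scaled by TMM, and edgeR 4.0.16 in R 4.3.3 fitted a robust quasi-likelihood model with 1 coefficient per group to all 41 livers, which share 1 estimate of the spread (biological coefficient of variation 0.187). Every adjusted P is from this model, by Benjamini-Hochberg over the whole table, called under 0.05, unless another tool is named. CPM values use TMM-scaled totals. A gene with no liver above 3 counts in a sex is given a lower bound of the fold. Bounds cover counting error only. No litter is given in the labels, so that P values measure the spread between these mice. The study fitted treatment, sex, and their interaction with limma-voom. The named genes are the 10 with the smallest P in each direction at 2-fold, 5 each called with 1 treatment only, 5 with the smallest interaction P, the leading called gene of each list and direction, and Fgf21, Klb, Fgfr1, and Egr1. Other genes named are members of the lists and were chosen after their values were seen. The members and lists were chosen with earlier results of these data known.

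Alternatives were DESeq2 1.42.0 (size factors, and its Wald test), limma-voom (limma 3.58.1), raw library totals, other filters, no robust estimation, 2 surrogate variables (sva 3.50.0), a replicate block, only the livers of the treatment compared, a threshold of 0.10, adjustment over autosomal genes, and leaving out each liver. No livers of a group agreed within sampling noise (smallest chi-square per gene 3.07 over 191 pairs). Some named genes are not reported here.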

Additional observations from a re-analysis of the deposited data

Results flagged for a closer look

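In 62 groups of values, the 59 named genes and 3 library properties in the 9 FGF21-treated females, the highest or lowest liver was set against the others by Dixon's test, which flags about 1 in 20 groups by chance. It set apart 5. Cyp2c69 was at 2655 CPM in replicate 4, the next highest female being at 1197 CPM. Sult2a1 was at 498.8 CPM in replicate 9 and next at 330.3 CPM. Klb was lowest in replicate 9 at 6.2 CPM, with the next at 9.77 CPM. Icos was highest in replicate 2, at 3.83 CPM against 2.78 CPM. Nat8f5 was at 0.348 CPM in replicate 7, a single count, and at 0 in the other females.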

How the results depend on the processing

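The number of genes with a sex difference after FGF21 was 923 (at least 10 counts in every liver) to 1825 (adjusted P under 0.10) against 1301, and was 1384 with limma-voom and 1449 with the DESeq2 Wald test. No alternative gave a gene with an altered difference. Without TMM, 395 genes were higher in males and 1138 in females, and 2 cholesterol genes were called. At least 10 counts in every liver removed genes that are silent in a sex and left 81 genes at 2-fold, 52 male-higher and 29 female-higher, with 20 P450, 3 sulfation, 3 flavin monooxygenase, 7 Mup, 8 transporter, and 5 lipogenesis genes. A mean CPM of 0.5 in each sex left 5 sulfation genes. With only the livers of the treatment compared, 5 glucuronosyltransferase and 2 cholesterol genes were called. With 2 surrogate variables there were 17 lipogenesis and 11 cholesterol genes, and fatty acid oxidation had 9 with limma-voom and 8 at 0.10. The cause was not tested where none is named. Leaving out each liver gave 1171 (without FGF21-treated male replicate 10) to 1374 genes, 331 to 374 at 2-fold, 1607 to 1930 with vehicle, 790 to 859 kept, and 2 to 4 of the FGF21 axis. The Egr1 difference, -0.03, was not called and ranged from -0.24 to 0.11, above 0 in 8 such fits. Of the single-gene differences, 3124 kept direction and side of the threshold, 10 gained and 2 lost the call (Egfr, 0.44, and Ugt2b1, 0.15, both with 2 surrogate variables).

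Replicate numbers did not pair the livers: over 9 FGF21 pairs, r was -0.0358 to 0.128 (median -0.00201), and 3 of 18 livers correlated best with their own number. With a replicate block, 1241 genes were called. At a median SE of 0.25 for the interaction, even a sex difference changed by near 2-fold could miss the adjusted threshold. Pan2, with an interaction of -0.89 (SE 0.23), had an adjusted P of 0.99.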
